A study of Mus musculus and Homo sapiens with 180 samples.

Results

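The human globin genes are described here in 2 erythroid cell lines treated with the DOT1L inhibitor SGC0946. Members were the rows of 10 gene symbols, HBE1, HBG2, HBG1, HBD and HBB of the beta cluster and HBZ, HBM, HBA2, HBA1 and HBQ1 of the alpha cluster, taken from 44429 gene rows in each of 3 count tables. They were read in 28 of the 180 libraries of a study of DOT1L, the enzyme that methylates lysine 79 of histone H3, and its opposition to Polycomb repression. K562, an erythroleukaemia line that makes embryonic and fetal globins, was compared after 168 h in DMSO or in 5 µM SGC0946, with 4 libraries in each group. HuDEP-2, an erythroid progenitor line immortalised with an inducible viral gene cassette and grown with dexamethasone, doxycycline, stem cell factor and erythropoietin, was compared in the same way, again with 4 libraries per group. In a further experiment HuDEP-2 cells were kept for 7 days in DMSO or SGC0946 and were then sampled in expansion medium or in erythroid differentiation medium, with 3 libraries in each of the 4 groups.

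The differentiation medium held human AB serum, holo-transferrin, heparin, erythropoietin, less stem cell factor and interleukin-3, with no dexamethasone. The labels of all 12 libraries of that experiment read 7 days plus 72 h, also for the undifferentiated cells, whereas the study's text places the RNA-seq on day 2 of differentiation. The dose of 5 µM in that experiment comes from the study's methods. No label said that the libraries of a group came from separate cultures, and plating was described as in duplicate, so p-values here measure the spread between these libraries, which may be technical. Both are cultured lines and not primary erythroblasts. The labels name mouse as the organism of the K562 libraries and of the HuDEP-2 libraries at 168 h, and both a mouse and a human genome build, but the rows carry human gene symbols and both lines are human. K562 is labelled myeloid, and levels of erythroid markers are given with the depths.

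Haemoglobin is a tetramer of a pair of alpha-like and a pair of beta-like chains. The genes of each cluster lie in the order in which they are used in development, from the embryonic HBZ and HBE1 through the fetal gamma genes HBG1 and HBG2 to the adult HBA1, HBA2, HBB and the minor adult gene HBD. HBM and HBQ1 are alpha-like genes whose proteins are not known as major parts of any haemoglobin. In adult erythroid cells BCL11A, ZBTB7A and their partner complexes keep the gamma genes low, which is why a rise in gamma-globin is followed closely in work on sickle cell disease and beta-thalassaemia.

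The beta-cluster genes are all on the minus strand of chromosome 11 and the alpha-cluster genes all on the plus strand of chromosome 16. In GRCh38 the MANE Select transcripts were HBE1 at chr11:5268345-5269945, HBG2 at chr11:5253188-5254781, HBG1 at chr11:5248269-5249857, HBD at chr11:5232838-5234483 and HBB at chr11:5225464-5227071. On the alpha side they were HBZ at chr16:152644-154503, HBM at chr16:165978-166764, HBA2 at chr16:172876-173710, HBA1 at chr16:176680-177522 and HBQ1 at chr16:180459-181179. The 150 bases before the start of 5 of them are shown, because the results divide between them, HBG2, HBZ and HBD having risen with SGC0946 in each HuDEP-2 comparison and HBE1 in differentiated cells, whereas HBB had not risen without a block for replicate number. Capitals mark the CCAAT box, the motif TGACCA, the motif CACCC and the GATA site AGATAA, each searched on both strands. Where the motif TGACCA runs into a CCAAT box the matches share letters.
HBE1, chr11:5269946-5270095, minus strand: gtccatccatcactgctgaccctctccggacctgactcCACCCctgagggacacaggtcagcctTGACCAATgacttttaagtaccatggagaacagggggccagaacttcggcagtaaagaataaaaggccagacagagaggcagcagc
HBG2, chr11:5254782-5254931, minus strand: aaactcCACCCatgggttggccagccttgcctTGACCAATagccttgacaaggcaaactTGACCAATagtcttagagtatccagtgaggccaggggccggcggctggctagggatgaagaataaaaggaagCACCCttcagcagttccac
HBD, chr11:5234484-5234633, minus strand: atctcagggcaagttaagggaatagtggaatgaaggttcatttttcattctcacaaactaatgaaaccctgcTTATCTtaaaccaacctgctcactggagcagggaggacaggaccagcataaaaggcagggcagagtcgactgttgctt
HBB, chr11:5227072-5227221, minus strand: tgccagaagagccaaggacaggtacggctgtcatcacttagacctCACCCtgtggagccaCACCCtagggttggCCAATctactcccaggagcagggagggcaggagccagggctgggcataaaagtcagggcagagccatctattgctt
HBZ, chr16:152494-152643, plus strand: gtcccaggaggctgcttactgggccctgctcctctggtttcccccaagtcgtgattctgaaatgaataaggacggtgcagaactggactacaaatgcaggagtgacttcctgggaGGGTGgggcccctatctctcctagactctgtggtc

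Counting back from the transcript start, the window of HBG2 held TGACCA at bases 118 to 113 and again at 91 to 86, each overlapping a CCAAT, and CACCC at 144 to 140 and 19 to 15. TGACCA is the core of the BCL11A recognition sequence. The window of HBG1 had the same 150 letters. HBE1 held TGACCA at bases 86 to 81 with an overlapping CCAAT and CACCC, the core of the KLF1 motif, at 112 to 108. HBB held CCAAT at 76 to 72 and CACCC at 105 to 101 and at 90 to 86, and no TGACCA. HBD held neither CCAAT nor CACCC, and the reverse of AGATAA stood at 78 to 73. TGACCA was in 3 globin windows and in 4.48% of 19061 windows of the same length before human protein-coding genes, CCAAT in 6 and in 26.7%, CACCC in 6 and in 42.4%, and AGATAA in 1 and in 3.25%. These matches describe letters in a window and were not tied to binding by any measurement here.

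Some of these genes are hard to tell apart by reads. HBG1 and HBG2 transcripts were 99.1% identical, and over their last 200 bases, where 3′ reads fall, 97.5% identical. HBA1 and HBA2 were 96.5% identical in all and 89.5% over the last 200 bases. The division of reads between HBG1 and HBG2, and between HBA1 and HBA2, is therefore uncertain, whereas HBB and HBD, 65.5% identical over the last 200 bases, are separable. The study's methods name the GeneCounts mode of the aligner STAR, without spelling out how reads matching both genes of a pair were counted. If such reads were left out, the levels of these pairs and of gamma relative to HBB and HBD would be too low. The annotated gene spans of HBE1 and HBG2 also overlap through long rare transcripts, as do those of HBZ and HBM.

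Libraries held 6939093 to 12550004 gene reads in K562, 5216015 to 9499861 in HuDEP-2 at 168 h and 5583064 to 13681475 in the differentiation experiment. Levels are given as CPM, a gene's read count relative to the library's gene reads, which CPM sets to 1000000, after the totals were scaled by TMM to equalise library composition. A 3′ read count does not grow with transcript length, so CPM values of different genes are set side by side without a length term. Among erythroid markers GATA1, the master transcription factor of the lineage, was at 275 to 366 CPM in K562 and 181 to 500.4 CPM in HuDEP-2, and the transferrin receptor TFRC at 35.0 to 129 CPM and 514 to 1312 CPM. AHSP, the chaperone of free alpha-globin, was nearly absent from K562, with 1 to 13 reads per library. Summed myeloid markers were between 0.728 and 1.17 CPM in expansion DMSO libraries and between 10.02 and 14.8 in expansion SGC0946 libraries, where CD33 carried most of the sum and MPO and ELANE stood at 0. The same sum was 1.25 to 1.81 against 4.02 to 6.28 CPM in differentiated cells, 4.48 to 9.33 against 8.92 to 21.2 at 168 h and 87.1 to 198 against 114 to 201 in K562. Their part in the globin results was not tested. In bulk RNA, fewer cells of a type and less RNA per cell cannot be told apart.

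In K562 SGC0946 raised the fetal gamma genes, the delta gene and 3 alpha-side genes, and lowered embryonic epsilon-globin. HBD, HBG1, HBG2, HBZ, HBA2 and HBA1 rose, HBE1 fell, HBB and HBQ1 did not pass the test, and HBM was too low to test. In this line 17.7% of the 10276 genes tested were called higher and 17.2% lower at an adjusted p under 0.05 (edgeR quasi-likelihood test, Benjamini-Hochberg), so change was common in K562 at large. Over the 9 globin genes tested the median log2 fold change was 0.44, against -0.01 over all genes tested.

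HBG2, the gamma gene to which more reads were assigned, had 1238, 1244, 991 and 1078 CPM in the 4 DMSO libraries and 2058, 1533, 1408 and 1578 CPM in the 4 SGC0946 libraries. Every treated library was above every control, and the difference was 1.44-fold (log2 fold change 0.53 ± 0.10 SE, adjusted p = 0.000188). HBG1 went from 978, 1046, 873 and 891 to 1580.0, 1214, 1118 and 1224 CPM, also without overlap (log2 fold change 0.44 ± 0.09 SE, adjusted p = 0.000569). HBZ, the embryonic alpha-like chain, had 453, 462, 438 and 342 CPM in DMSO and 640.5, 624, 580.2 and 749 CPM in SGC0946 (log2 fold change 0.61 ± 0.09 SE, adjusted p = 1.85e-05). All 4 treated libraries were again the higher ones.

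The fold was largest for HBD, the delta chain of the minor adult haemoglobin, at a low level. Its libraries held 12.4, 20.6, 19.6 and 16.9 CPM in DMSO and 41.0, 37.6, 40.1 and 32.8 CPM after the inhibitor, a 2.18-fold difference (log2 fold change 1.13 ± 0.15 SE, adjusted p = 3.78e-06). HBA2 stood at 560.3 ± 94.5 CPM (SD, n = 4) in DMSO and 787 ± 55.5 CPM (SD, n = 4) in SGC0946 (log2 fold change 0.49 ± 0.09 SE, adjusted p = 0.000288). HBA1 stood at 339.9 ± 40.4 CPM (SD, n = 4) and 437 ± 20.5 CPM (SD, n = 4) (log2 fold change 0.36 ± 0.08 SE, adjusted p = 0.00123). The libraries of the 2 groups did not overlap for either alpha gene.

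HBE1, the embryonic beta-like chain that K562 cells make in quantity, was the single globin gene that fell in this line. It had 465, 589, 472 and 421 CPM in DMSO and 364, 313, 315 and 334 CPM in SGC0946, with no overlap, and was 1.47-fold lower (log2 fold change -0.55 ± 0.09 SE, adjusted p = 3.98e-05). HBQ1 had 359 ± 32.5 CPM (SD, n = 4) and 371 ± 41.3 CPM (SD, n = 4) and did not pass (log2 fold change 0.05 ± 0.08 SE, adjusted p = 0.699).

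Adult HBB was low and uneven in K562. Its libraries held 5.37, 131, 40.5 and 3.50 CPM in DMSO, from 40, 1129, 284 and 32 reads, and 21.1, 111, 13.8 and 7.31 CPM in SGC0946, from 194, 1058, 174 and 78 reads. Replicate 2 was the highest library in both groups, and the comparison did not pass (log2 fold change -0.26 ± 0.73 SE, adjusted p = 0.818). Its sign turned without DMSO replicate 2 (1.24, adjusted p = 0.177) and without SGC0946 replicate 3 or SGC0946 replicate 4 (0.03 and 0.09). AHSP, which the HuDEP-2 cells express, did not follow HBB in these libraries, with 2, 1, 5 and 1 reads in DMSO and 5, 8, 13 and 8 reads in SGC0946. HBM had 5, 9, 11 and 0 reads in DMSO and 5, 24, 9 and 7 reads in SGC0946, and the latter's high library was again replicate 2. A difference in HBM was not detectable at this depth.

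**Figure D1:**
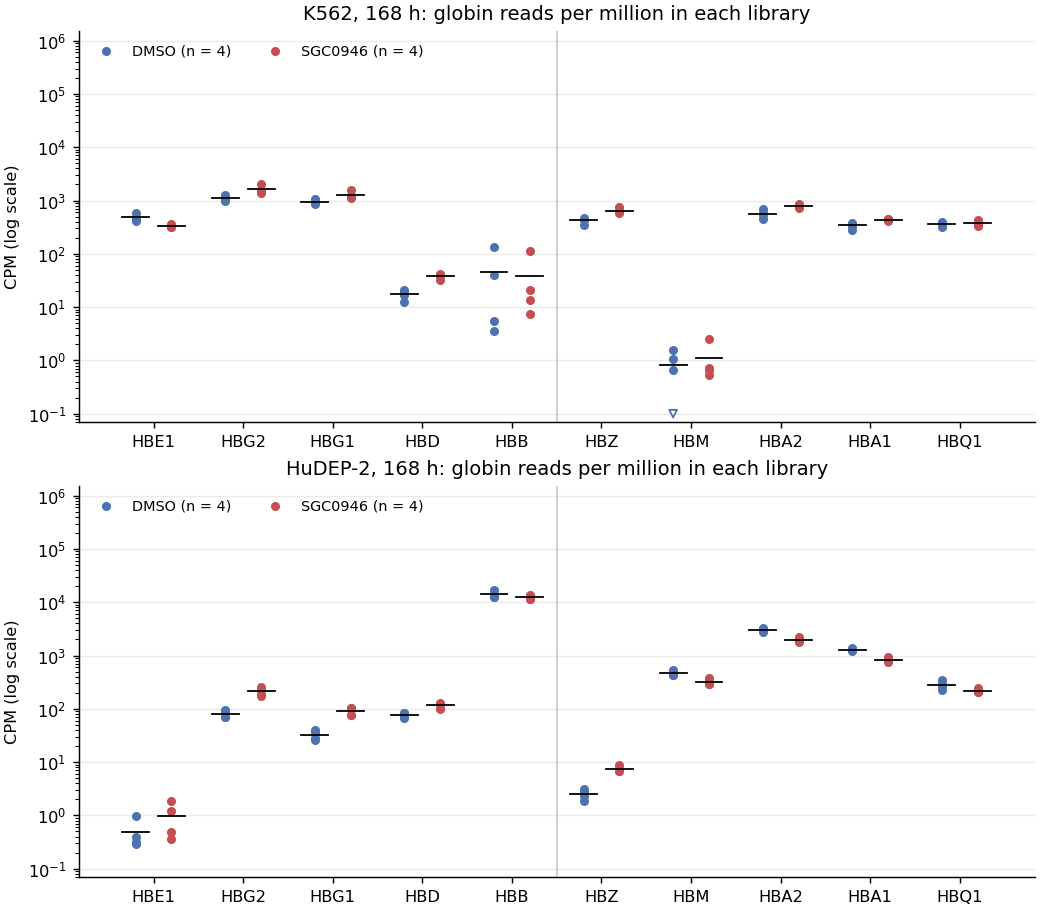
CPM on a log axis of the 10 globin genes in K562 and in HuDEP-2 at 168 h, 1 point per library, DMSO and SGC0946 side by side. A triangle at the foot marks a library without a read. In K562 HBB spans 3.50 to 131 CPM within the DMSO group, while in HuDEP-2 its lowest library has 11377 CPM.

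HuDEP-2 cells at 168 h had the opposite makeup, led by HBB and HBA2, and there the gamma genes rose with SGC0946 while the alpha genes fell. HBG1, HBG2, HBZ and HBD rose, and HBA1, HBA2, HBM and HBQ1 fell. HBB did not pass the test, and HBE1 was too low to be tested. Of 10099 genes tested 5.06% were called higher and 3.1% lower. The median log2 fold change over the 9 globin genes tested was -0.19 against -0.01 over all genes.

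HBG2 had 84.7, 95.8, 71.3 and 68.9 CPM in DMSO and 252, 235, 189 and 174 CPM in SGC0946, a 2.65-fold rise (log2 fold change 1.40 ± 0.12 SE, adjusted p = 4.05e-09). HBG1 had 39.2, 34.4, 26.2 and 28.4 CPM in DMSO and 103, 102, 77.8 and 76.1 CPM in SGC0946, a 2.80-fold rise (log2 fold change 1.49 ± 0.14 SE, adjusted p = 1.99e-08). For both gamma genes the lowest treated library was above the highest control.

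HBZ had 2.35, 3.11, 2.72 and 1.87 CPM in DMSO, from 12, 26, 17 and 13 reads, and 6.84, 7.47, 8.84 and 6.91 CPM in SGC0946, from 62, 72, 71 and 58 reads (log2 fold change 1.56 ± 0.31 SE, adjusted p = 0.00159). HBD had 67.7, 83.2, 82.2 and 75.4 CPM in DMSO and 129, 124, 119 and 101 CPM in SGC0946 (log2 fold change 0.61 ± 0.10 SE, adjusted p = 0.000147). Neither gene's groups overlapped. HBE1 had 2, 8, 2 and 2 reads in DMSO and 11, 18, 4 and 3 reads in SGC0946, and replicate 2 was the highest library of both groups.

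On the alpha side HBA2 had 3050.2, 3311, 2924 and 2769 CPM in DMSO and 1929.6, 2242, 1881 and 1825 CPM in SGC0946, 1.53-fold lower (log2 fold change -0.61 ± 0.07 SE, adjusted p = 8.86e-07). HBA1 had 1308, 1394, 1243 and 1234 CPM in DMSO and 783, 940.1, 799 and 766 CPM in SGC0946, 1.58-fold lower (log2 fold change -0.66 ± 0.07 SE, adjusted p = 4.72e-07). Neither alpha gene overlapped between groups. HBM, the mu-globin gene, went from 476 ± 52.9 CPM (SD, n = 4) to 323 ± 38.1 CPM (SD, n = 4) without overlap (log2 fold change -0.56 ± 0.09 SE, adjusted p = 8.48e-05). HBQ1, the theta-globin gene, had 349.8, 230.3, 273 and 288 CPM in DMSO and 211, 244, 203 and 207 CPM in SGC0946, which overlapped (log2 fold change -0.40 ± 0.10 SE, adjusted p = 0.0103). The call on HBQ1 was lost without DMSO replicate 1, SGC0946 replicate 3 or SGC0946 replicate 4 (adjusted p = 0.0559, 0.0609 and 0.0541).

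HBB, the most abundant globin gene of this line, had 14436, 16739, 12514 and 12514 CPM in DMSO and 13474, 13078, 11377 and 11507 CPM in SGC0946. The groups overlapped and the difference did not pass (log2 fold change -0.19 ± 0.08 SE, adjusted p = 0.157). With no filter on low counts it passed as lower (adjusted p = 0.0266).

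**Figure D2:**
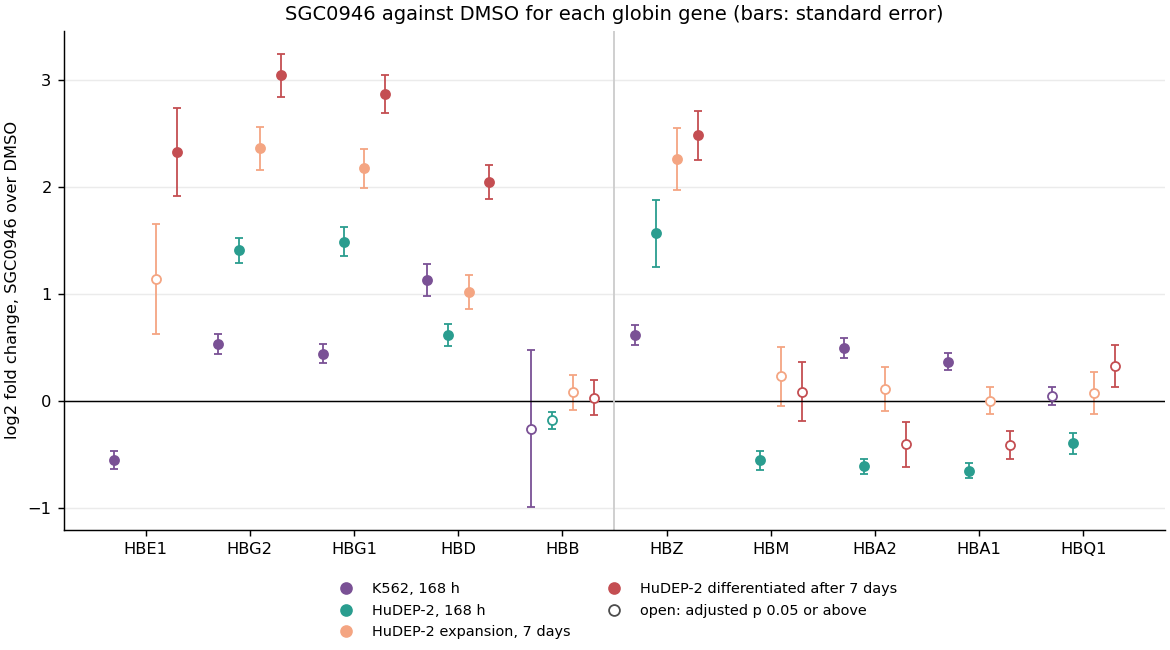
Log2 fold change of SGC0946 over DMSO with its SE for each globin gene tested, in K562, in HuDEP-2 at 168 h, in HuDEP-2 expansion medium and in differentiated HuDEP-2; filled points passed an adjusted p under 0.05. HBG1, HBG2, HBD and HBZ lie above 0 in all 4 settings, and HBA1 and HBA2 are above 0 in K562 and below 0 in HuDEP-2 at 168 h and in differentiated cells.

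The further HuDEP-2 experiment set 7 days in the same agent before a change of medium. In expansion medium HBG1, HBG2, HBZ and HBD rose after SGC0946, and HBE1, HBB, HBM, HBA2, HBA1 and HBQ1 did not pass. Of 9848 genes tested, 3.11% were called higher and 0.751% lower. Same-numbered libraries of this experiment varied together, and in a fit blocked on replicate number HBA2, HBB and HBM also passed as higher, making 7, while 9.25% of all genes were then called higher and 6.16% lower. The median over the 10 globin genes was 0.62 against -0.00103 for all genes tested on the log2 scale.

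HBG2 had 35.8, 31.8 and 34.7 CPM in expansion DMSO libraries and 219, 149 and 156 CPM in expansion SGC0946 libraries (log2 fold change 2.36 ± 0.20 SE, adjusted p = 2.14e-06), a 5.13-fold rise. HBG1 had 33.8, 21.7 and 27.5 CPM in DMSO and 137, 99.4 and 137 CPM in SGC0946 (log2 fold change 2.17 ± 0.18 SE, adjusted p = 2.14e-06). HBZ had 1.87, 3.28 and 2.96 CPM in DMSO and 12.1, 13.9 and 13.4 CPM in SGC0946 (log2 fold change 2.25 ± 0.29 SE, adjusted p = 0.000158). For these 3 genes each treated library was above each control. HBD, with 105, 85.0 and 112 CPM in DMSO and 228, 166 and 218 CPM in SGC0946, rose 2.03-fold (log2 fold change 1.02 ± 0.16 SE, adjusted p = 0.000923).

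The adult genes differed less. HBB had 21702, 15882 and 19661 CPM in DMSO and 22261, 17274 and 20882 CPM in SGC0946 (log2 fold change 0.08 ± 0.17 SE, adjusted p = 0.924; with the block 0.08 ± 0.02 SE, adjusted p = 0.00519). HBA2 had 7564, 9862 and 11169 CPM in DMSO and 7577, 10989 and 12229 CPM in SGC0946 (log2 fold change 0.11 ± 0.21 SE, adjusted p = 0.91; with the block 0.10 ± 0.03 SE, adjusted p = 0.00581). In both genes the spread between replicate numbers was wider than the shift with treatment, replicate 1 having the most HBB and the least HBA2 in each group. HBM had 219, 299 and 388 CPM in DMSO and 247, 343 and 472 CPM in SGC0946 (log2 fold change 0.23 ± 0.28 SE, adjusted p = 0.825; with the block 0.22 ± 0.04 SE, adjusted p = 0.000202). HBA1, at 3316 ± 282 CPM (SD, n = 3) and 3316 ± 401 CPM (SD, n = 3), and HBQ1, at 259 ± 62.4 CPM (SD, n = 3) and 272 ± 71.4 CPM (SD, n = 3), passed in neither fit. HBE1 had 3, 8 and 4 reads in DMSO and 6, 9 and 9 in SGC0946 and did not pass (log2 fold change 1.14 ± 0.52 SE, adjusted p = 0.334).

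In differentiated cells HBG1, HBG2, HBZ and HBD rose again, HBE1 rose with them, and HBB, HBM, HBA2, HBA1 and HBQ1 did not pass. HBE1 entered the test through its differentiated SGC0946 libraries alone, so the count of 5 is not free of the filter. Among all genes 6.37% were called higher and 2.01% lower. With the replicate number as a block 6 rose, HBQ1 being added, and HBA1 and HBA2 fell, against 12.9% of all genes higher and 12.1% lower. The member median was 1.18 on the log2 scale against -0.00246 over all genes tested.

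HBG2 had 149, 96.4 and 109 CPM in differentiated DMSO libraries and 1226, 826 and 859 CPM in differentiated SGC0946 libraries, 8.22-fold higher (log2 fold change 3.04 ± 0.20 SE, adjusted p = 8.62e-08). HBG1 had 97.9, 76.1 and 83.8 CPM in DMSO and 719, 528 and 633 CPM in SGC0946, 7.29-fold higher (log2 fold change 2.87 ± 0.18 SE, adjusted p = 5.17e-08). The gamma genes had the largest folds of the family in this comparison. HBD had 518, 403 and 541 CPM in DMSO and 2159, 1735 and 2136 CPM in SGC0946, 4.12-fold higher (log2 fold change 2.04 ± 0.16 SE, adjusted p = 5.29e-07). After SGC0946 HBD exceeded HBG1 and HBG2 in each of the 3 libraries, as far as reads were assigned to the gamma genes.

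Of the embryonic genes HBZ had 9.59, 15.9 and 17.7 CPM in DMSO and 56.5, 84.6 and 100.2 CPM in SGC0946 (log2 fold change 2.48 ± 0.23 SE, adjusted p = 2.5e-06). HBE1 had 6, 5 and 15 reads in DMSO and 24, 16 and 32 reads in SGC0946, or 0.576, 0.532 and 1.17 against 4.19, 2.87 and 4.77 CPM (log2 fold change 2.32 ± 0.41 SE, adjusted p = 0.00164). The filter admitted it through the treated group alone. Its libraries did not overlap, at a level far under that of the gamma genes.

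HBB did not pass in differentiated cells, with 65045, 47194 and 60219 CPM in DMSO and 66641, 49480.0 and 59853 CPM in SGC0946 (log2 fold change 0.03 ± 0.17 SE, adjusted p = 0.953). HBA2 had 19557, 25530.0 and 29106 CPM in DMSO and 14405, 19743 and 21749 CPM in SGC0946, lower in 3 of 3 same-numbered pairs (log2 fold change -0.41 ± 0.21 SE, adjusted p = 0.283; with the block -0.41 ± 0.03 SE, adjusted p = 1.75e-19). Without the block it passed when genes of low count were kept in the test (adjusted p = 0.0156). HBA1 had 7313, 7215 and 8397 CPM in DMSO and 5349, 5577 and 6284 CPM in SGC0946, without overlap (log2 fold change -0.41 ± 0.13 SE, adjusted p = 0.0557; with the block -0.41 ± 0.03 SE, adjusted p = 1.34e-16). Without the block HBA1 passed as lower by DESeq2, with library totals in place of TMM and with no filter (adjusted p = 0.0137, 0.0442 and 0.0166). HBQ1 had 283, 328 and 378 CPM in DMSO and 339.9, 413 and 483 CPM in SGC0946, higher in 3 of 3 pairs (log2 fold change 0.32 ± 0.20 SE, adjusted p = 0.397; with the block 0.32 ± 0.05 SE, adjusted p = 2.63e-06). HBM, at 964 ± 295 CPM (SD, n = 3) and 1021 ± 322 CPM (SD, n = 3), passed in neither fit.

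**Figure D3:**
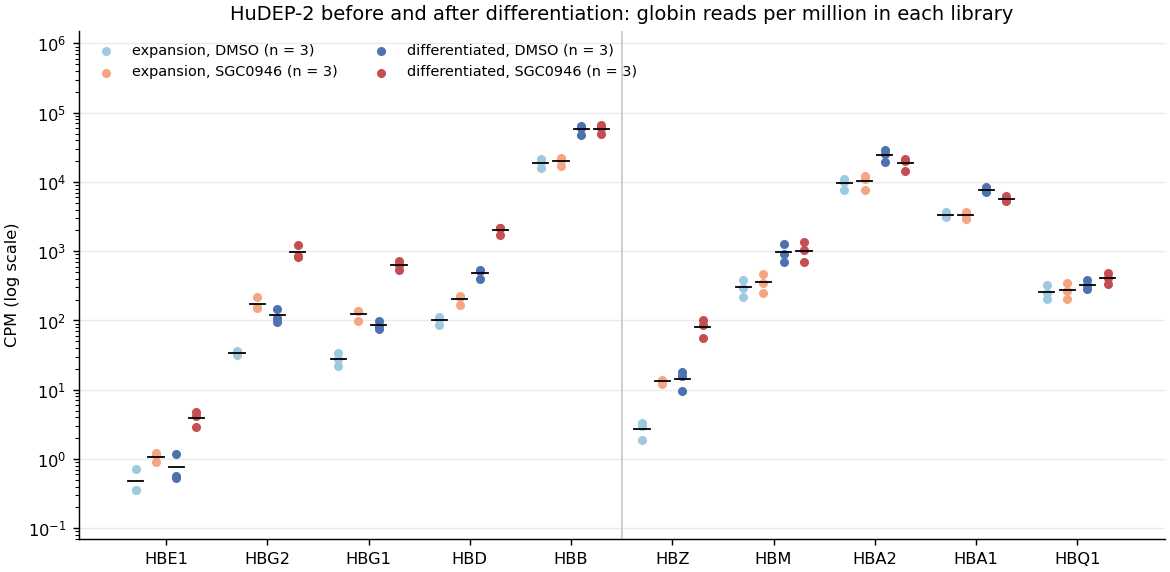
CPM on a log axis of the 10 globin genes in the 12 libraries of the differentiation experiment, 1 point per library, in the order expansion DMSO, expansion SGC0946, differentiated DMSO and differentiated SGC0946. HBB separates by medium and not by agent, from 15882 to 22261 CPM in expansion medium and from 47194 to 66641 after differentiation, whereas HBG1, HBG2 and HBD step up with both.

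Differentiation medium raised most of the family with or without the inhibitor. After DMSO 8 globin genes rose, and HBE1 and HBQ1 did not pass, against 8.12% of all genes called higher and 7.6% lower. With the block HBQ1 passed as well (0.36 ± 0.05 SE, adjusted p = 7.92e-08), against 18.6% and 18.2% of all genes. After SGC0946 9 rose and HBQ1 did not pass (log2 fold change 0.60 ± 0.20 SE, adjusted p = 0.0595), against 7.36% and 5.85%. With the block 10 rose, against 15.5% and 17.2%, and HBQ1 also passed by DESeq2 and with no filter (adjusted p = 0.0457 and 0.00157). Both counts include HBE1, which reached the filter in the differentiated SGC0946 libraries alone, so they are not free of it. These contrasts share groups with the 2 comparisons above. The member medians were 1.62 after DMSO and 1.70 after SGC0946, against 0.00487 and 0.02 over all genes tested. Library totals without TMM moved the median of all genes after DMSO to -0.12 and left the 8 calls in place, whereas the all-gene split of 800 higher and 748 lower became 511 and 1234.

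HBB rose 3.01-fold with differentiation after DMSO (log2 fold change 1.59 ± 0.17 SE, adjusted p = 1.04e-05) and 2.91-fold after SGC0946 (log2 fold change 1.54 ± 0.17 SE, adjusted p = 2.68e-05). HBA1 rose 2.30-fold after DMSO (log2 fold change 1.20 ± 0.13 SE, adjusted p = 1.04e-05) and 1.73-fold after SGC0946 (log2 fold change 0.79 ± 0.13 SE, adjusted p = 0.00073). HBA2 rose 2.59-fold (log2 fold change 1.38 ± 0.21 SE, adjusted p = 0.000287) and 1.82-fold (log2 fold change 0.86 ± 0.21 SE, adjusted p = 0.0123). The latter call was lost without differentiated SGC0946 replicate 2, differentiated SGC0946 replicate 3 or expansion SGC0946 replicate 1 (adjusted p = 0.0520, 0.0687 and 0.0542). HBM rose 3.19-fold and 2.88-fold in the 2 arms.

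HBD rose 4.85-fold after DMSO (log2 fold change 2.28 ± 0.16 SE, adjusted p = 1.4e-07) and 9.86-fold after SGC0946 (log2 fold change 3.30 ± 0.17 SE, adjusted p = 9.87e-09). For HBG1 the rises were 3.12-fold and 5.04-fold, for HBG2 3.46-fold and 5.55-fold, and for HBZ 5.23-fold and 6.11-fold. In the DMSO arm the gamma genes' log2 changes of 1.64 and 1.79 stood beside 1.59 for HBB. HBE1, tested through its differentiated SGC0946 libraries alone, was 3.60-fold higher there than in expansion SGC0946 libraries (log2 fold change 1.85 ± 0.42 SE, adjusted p = 0.00849), a value the filter did not leave free, and after DMSO its log2 fold change was 0.67 ± 0.51 SE (adjusted p = 0.415).

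**Figure D4:**
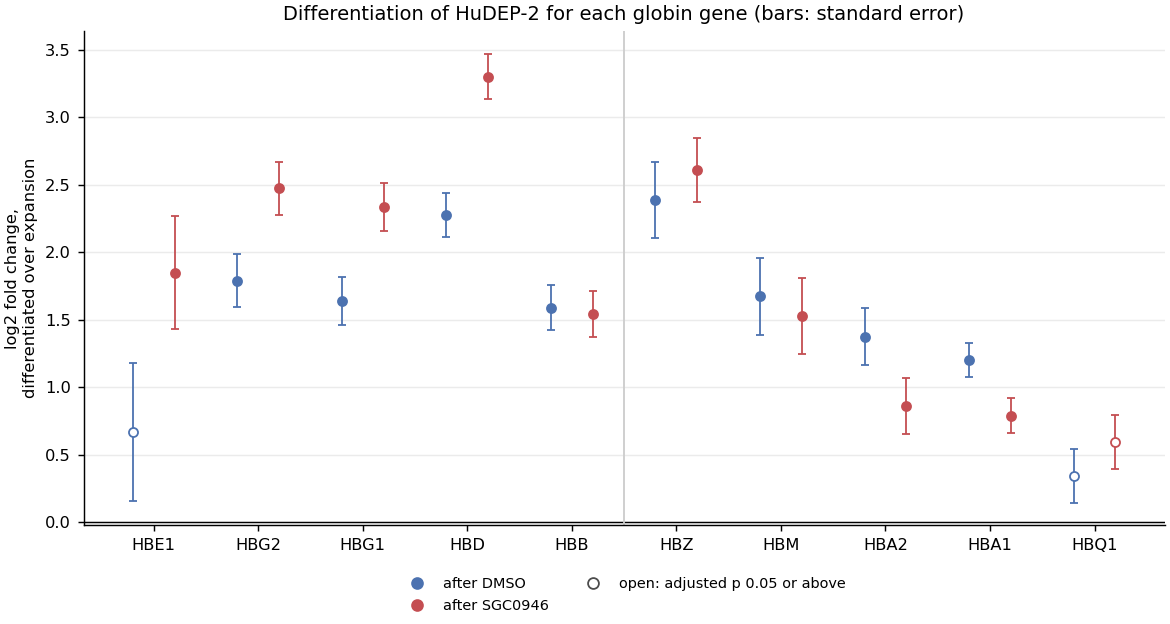
Log2 fold change of differentiated over expansion cells with its SE for each globin gene, after DMSO and after SGC0946; filled points passed an adjusted p under 0.05. HBD is at 2.28 after DMSO and at 3.30 after SGC0946, while HBB is at 1.59 and 1.54.

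Whether the effect of SGC0946 differed between media was tested as an interaction. Without a block no globin gene passed (edgeR quasi-likelihood test), beside 0.396% of all genes called higher and 0.0812% lower. At an unadjusted p under 0.05 stood 4 globin genes, beside 920 of the 9848 genes tested. HBD passed without the block by DESeq2, with library totals and with no filter (adjusted p = 0.0025, 0.0158 and 0.000205), and when any of 3 libraries was left out, differentiated SGC0946 replicate 2, expansion DMSO replicate 2 or expansion SGC0946 replicate 1 (adjusted p = 0.0476, 0.0393 and 0.0448). In the blocked fit 6 passed, HBD, HBG1, HBG2 and HBQ1 with a larger rise in differentiated cells and HBA1 and HBA2 with a lower log2 fold change there, where 3.93% of all genes were called higher and 5.09% lower. HBD differed by 1.02 ± 0.22 SE on the log2 scale (adjusted p = 0.0533; with the block 1.03 ± 0.06 SE, adjusted p = 4.84e-19). HBG1 differed by 0.69 ± 0.24 SE (adjusted p = 0.342; with the block 0.69 ± 0.09 SE, adjusted p = 1.76e-07) and HBG2 by 0.68 ± 0.27 SE (adjusted p = 0.423; with the block 0.71 ± 0.09 SE, adjusted p = 2.13e-08). With the block the difference was -0.51 ± 0.04 SE, adjusted p = 2.58e-16 for HBA2, -0.41 ± 0.04 SE, adjusted p = 2.27e-10 for HBA1 and 0.25 ± 0.07 SE, adjusted p = 0.0228 for HBQ1. HBB, HBE1, HBZ and HBM passed in neither fit.

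The gamma share, HBG1 plus HBG2 reads as a percentage of the reads of the 5 beta-cluster genes, uses no scaling between libraries. In K562 it was 82.1, 75.5, 77.8 and 81.7% in DMSO and 89.5, 85.6, 87.2 and 88.2% in SGC0946. In HuDEP-2 at 168 h it was 0.848, 0.768, 0.769 and 0.767% in DMSO and 2.54, 2.49, 2.27 and 2.11% in SGC0946. Treated and control libraries did not overlap in either line, and the exact two-sided permutation test gave p = 0.0286 for each, the smallest that 4 against 4 libraries allow (adjusted p = 0.129 over 18 tests).

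In expansion medium the gamma share was 0.318, 0.333 and 0.314% in DMSO and 1.56, 1.41 and 1.37% in SGC0946. After differentiation it was 0.374, 0.361 and 0.316% in DMSO and 2.75, 2.58 and 2.35% in SGC0946. Neither pair overlapped, and 3 against 3 libraries cannot go below an exact permutation p of 0.1 (adjusted p = 0.2). Between media the share overlapped in DMSO cells, with means of 0.351% and 0.322% (exact permutation p = 0.3), and did not overlap in SGC0946 cells, with means of 2.56% and 1.44% (exact permutation p = 0.1). HBB stayed the main gene of the cluster in all 20 HuDEP-2 libraries.

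All 10 globin genes together took 0.439 ± 0.0362% of gene reads in K562 DMSO libraries and 0.548 ± 0.0463% in K562 SGC0946 libraries (SD, n = 4), without overlap (exact permutation p = 0.0286, adjusted p = 0.129). In HuDEP-2 at 168 h the shares were 1.90 ± 0.206% and 1.64 ± 0.125% and overlapped (exact permutation p = 0.143). In expansion medium they were 3.46, 3.18 and 3.60% in DMSO and 3.50, 3.45 and 3.79% in SGC0946, higher in 3 of 3 same-numbered pairs (unpaired exact permutation p = 0.5). After differentiation they were 8.85, 8.16 and 9.40% in DMSO and 8.78, 7.93 and 8.83% in SGC0946, lower in 3 of 3 pairs (unpaired exact permutation p = 0.5). Every differentiated library had a larger globin share than every expansion library, and the treated and control ranges overlapped within each medium.

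Alpha-cluster reads per beta-cluster read were 0.359, 0.317, 0.384 and 0.378 in HuDEP-2 DMSO libraries at 168 h and 0.231, 0.281, 0.274 and 0.261 in SGC0946 libraries. The treated libraries were all lower (difference of mean log2 ratios -0.46, exact permutation p = 0.0286, adjusted p = 0.129). In differentiated cells the ratio was 0.423, 0.712 and 0.643 in DMSO and 0.295, 0.511 and 0.472 in SGC0946, lower in 3 of 3 same-numbered pairs, though the groups overlapped (difference -0.48, exact permutation p = 0.3). In expansion medium it was 0.507, 0.851 and 0.783 in DMSO and 0.480, 0.843 and 0.785 in SGC0946 (difference -0.03, exact permutation p = 0.8). Replicate 1 was the lowest in each of the 4 groups of that experiment. K562 ratios overlapped as well, with mean log2 ratios of -0.64 and -0.56 (exact permutation p = 0.429).

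**Figure D5:**
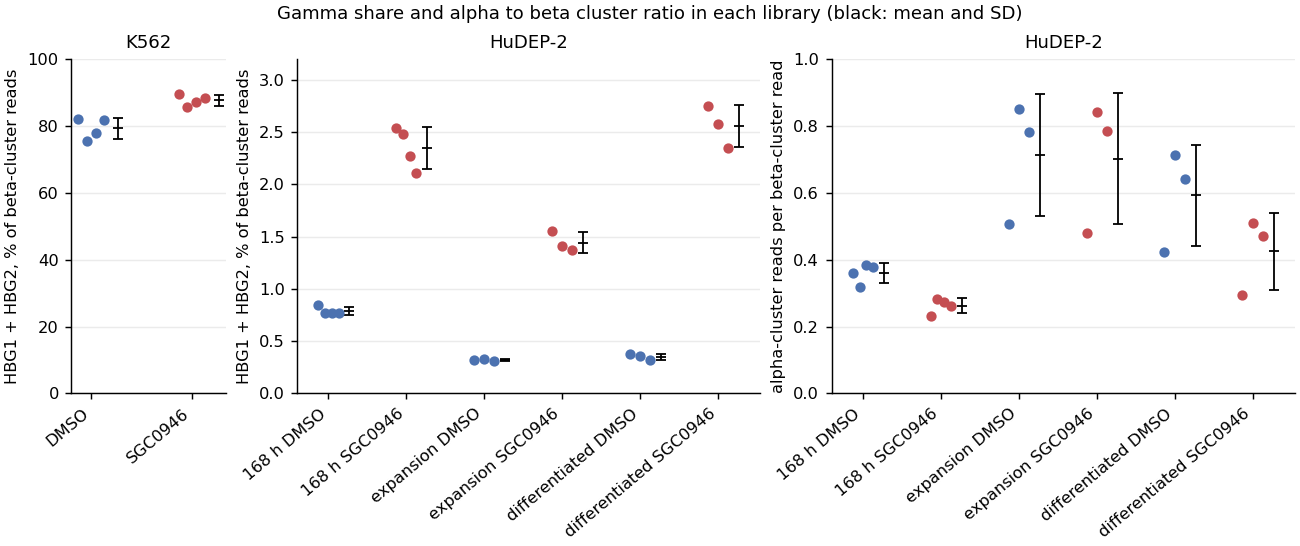
Gamma share of beta-cluster reads in K562 and in HuDEP-2, and alpha-cluster reads per beta-cluster read in HuDEP-2, 1 point per library. The gamma share is 75.5 to 89.5% in K562 and 0.314 to 2.75% in HuDEP-2, and in each line and medium the SGC0946 libraries lie above the DMSO libraries.

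Genes that regulate the globin clusters were read from a list of 33. Of 31 tested in HuDEP-2, SGC0946 lowered 3 and raised none at 168 h, beside 3.1% of all genes lower and 5.06% higher. It raised 1 and lowered 2 in expansion medium, beside 3.11% and 0.751% of all genes, and raised 1 and lowered 1 in differentiated cells, beside 6.37% and 2.01%. With the block 5 rose and 6 fell in expansion medium, beside 9.25% and 6.16%, and 6 rose and 8 fell in differentiated cells, beside 12.9% and 12.1%. In K562 6 of 29 rose and 3 fell, beside 17.7% and 17.2%. The list medians were -0.07, -0.03, 0.01 and 0.13 on the log2 scale in that order, beside all-gene medians within 0.01 of 0.

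BCL11A, the repressor of the gamma genes in adult cells, had 12.7 ± 0.787 CPM (SD, n = 3) in expansion DMSO libraries and 8.11 ± 1.33 CPM (SD, n = 3) in expansion SGC0946 libraries and fell (log2 fold change -0.64 ± 0.16 SE, adjusted p = 0.0343). In differentiated cells it had 18.9 ± 1.09 CPM (SD, n = 3) and 9.65 ± 0.682 CPM (SD, n = 3) and fell (log2 fold change -0.97 ± 0.16 SE, adjusted p = 0.0008). At 168 h the values were 17.3 ± 2.75 CPM (SD, n = 4) and 11.6 ± 3.25 CPM (SD, n = 4) and did not pass (log2 fold change -0.58 ± 0.21 SE, adjusted p = 0.0967). With differentiation BCL11A rose after DMSO (log2 fold change 0.58 ± 0.15 SE, adjusted p = 0.0142), where the gamma genes also rose. After SGC0946 its change with differentiation did not pass (log2 fold change 0.24 ± 0.17 SE, adjusted p = 0.391). In K562 it had 0 or 1 read in every library, so a fall there was not detectable. LIN28B, an RNA-binding protein of fetal cells, was low and rose in expansion medium from 1.80 ± 0.310 CPM (SD, n = 3) to 5.13 ± 0.619 CPM (SD, n = 3) (log2 fold change 1.50 ± 0.40 SE, adjusted p = 0.0442), and passed in no other comparison with SGC0946. Without its expansion SGC0946 libraries LIN28B would not have reached the filter. Its call, counted above among the regulators, is therefore not free of the filter.

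ZBTB7A, another gamma-gene repressor, passed in no comparison with SGC0946, with log2 fold changes of 0.42 in K562, -0.09 at 168 h, -0.03 in expansion medium and 0.02 in differentiated cells. MYB, whose loss is known to raise fetal haemoglobin, and IGF2BP1, whose forced expression does so, did not pass either without the block, and MYB passed as higher with it in differentiated cells (0.44, adjusted p = 0.00221). IGF2BP3 was low and fell in K562, from 4.09 ± 0.435 CPM (SD, n = 4) to 1.42 ± 0.707 CPM (SD, n = 4) (log2 fold change -1.53 ± 0.39 SE, adjusted p = 0.00426). Without its K562 DMSO libraries IGF2BP3 would not have reached the filter. Its call, counted above among the regulators, is not free of the filter either. KLF1, the activator of HBB, rose in K562 from 204 ± 32.4 CPM (SD, n = 4) to 399 ± 23.8 CPM (SD, n = 4) (log2 fold change 0.97 ± 0.09 SE, adjusted p = 6.31e-08). In HuDEP-2 it did not pass without the block. With the block it passed as higher in expansion medium (log2 fold change 0.15 ± 0.13 SE, adjusted p = 0.716; with the block 0.15, adjusted p = 0.00174) and as lower in differentiated cells (log2 fold change -0.34 ± 0.13 SE, adjusted p = 0.147; with the block -0.34, adjusted p = 3.87e-11). GATA2, a progenitor transcription factor that gives way to GATA1 in erythroid maturation, fell at 168 h (log2 fold change -1.16 ± 0.09 SE, adjusted p = 1.53e-09) and in expansion medium (log2 fold change -1.11 ± 0.12 SE, adjusted p = 3.6e-05), passed as lower in differentiated cells with the block (log2 fold change -0.44 ± 0.14 SE, adjusted p = 0.0597; with the block -0.44, adjusted p = 0.00395), and fell with differentiation after DMSO (log2 fold change -2.76 ± 0.13 SE, adjusted p = 4.6e-09). NFE2, LYAR and LMO2 were among the regulators that rose in K562, by 1.04, 0.78 and 0.80 on the log2 scale.

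Haem synthesis and haemoglobin assembly were read from 20 genes. SGC0946 raised 2 and lowered 2 of 20 tested at 168 h, where 5.06% of all genes rose and 3.1% fell. It raised 2 of 19 in expansion medium, beside 3.11% of all genes, and 2 of 19 in differentiated cells, beside 6.37%. In K562 it raised 6 and lowered 2 of 17, beside 17.7% and 17.2%. With the block 11 of 19 rose in expansion medium, beside 9.25% of all genes, and in differentiated cells 5 rose and 3 fell, beside 12.9% and 12.1%. ALAS2, the erythroid enzyme of the first step of haem synthesis, rose in K562 (log2 fold change 0.57 ± 0.11 SE, adjusted p = 0.000299) and at 168 h (log2 fold change 0.41 ± 0.10 SE, adjusted p = 0.0118), and in expansion medium it passed with the block (log2 fold change 0.72 ± 0.20 SE, adjusted p = 0.0602; with the block 0.71, adjusted p = 3.65e-19). TSPO2, an erythroid paralogue of the translocator protein TSPO, rose in each HuDEP-2 comparison, for example from 14.4 ± 0.285 CPM (SD, n = 3) to 40.6 ± 3.50 CPM (SD, n = 3) in expansion medium (log2 fold change 1.49 ± 0.13 SE, adjusted p = 4.23e-06). AHSP passed in no HuDEP-2 comparison with SGC0946 (log2 fold changes -0.16, -0.04 and 0.08). Differentiation after DMSO raised 14 of 19, beside 8.12% of all genes, with a median of 0.60 on the log2 scale, led by SLC25A37, the mitochondrial iron importer (log2 fold change 1.56 ± 0.11 SE, adjusted p = 1.82e-07), ALAS2 (log2 fold change 2.17 ± 0.21 SE, adjusted p = 3.36e-06) and FECH, which inserts the iron (log2 fold change 1.05 ± 0.12 SE, adjusted p = 1.48e-05). After SGC0946 it raised 12 of 19, beside 7.36% of all genes, and with the block 16 in each arm, beside 18.6% after DMSO and 15.5% after SGC0946.

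Of 24 late erythroid genes, 22 were tested in HuDEP-2, and differentiation raised 15 after DMSO, beside 8.12% of all genes, and 13 after SGC0946, beside 7.36%. With the block 17 rose after DMSO, beside 18.6%, and 17 rose and 1 fell after SGC0946, beside 15.5% higher and 17.2% lower. SLC4A1, the anion exchanger of the red cell membrane, rose after DMSO (log2 fold change 2.22 ± 0.11 SE, adjusted p = 6.48e-09). SGC0946 raised 1 and lowered 2 of the late genes at 168 h, raised 2 in expansion medium and raised 1 in differentiated cells, beside the all-gene shares given for the regulators. With the block 5 rose and 1 fell in expansion medium, and 4 rose and 3 fell in differentiated cells. In K562 4 of 20 rose, beside 17.7% of all genes, and 6 fell, beside 17.2%, among them XK, the carrier of the Kx blood group antigen (log2 fold change -0.98 ± 0.16 SE, adjusted p = 6.11e-05), and the carbonic anhydrase CA2 (log2 fold change -0.53 ± 0.10 SE, adjusted p = 0.000404). Of 12 progenitor genes 6 were tested in HuDEP-2. In differentiated cells CDK6 rose after SGC0946, beside 6.37% of all genes, and ITGA4 and MYC fell, beside 2.01%. ITGA4 is the CD49d chain (log2 fold change -0.64 ± 0.11 SE, adjusted p = 0.00118). At 168 h CDK6 alone passed, as higher, beside 5.06% of all genes, and in expansion medium none passed, beside 3.11% and 0.751%. With the block 3 rose and 2 fell in differentiated cells, beside 12.9% and 12.1%, and 2 fell in expansion medium, beside 6.16%.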

How the data were processed

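RNA was read from the 3′ ends of polyadenylated transcripts with either of 2 kits that the labels name without saying which library used which. According to the study's methods the authors demultiplexed with bcl2fastq, trimmed with bbmap, aligned to GRCh38 with STAR and counted reads per gene in the same step; the strand setting and annotation release are not given in the sources used here. The deposited values are whole-number read counts per gene and library, with no normalization. The table that holds K562 also holds 24 columns of another line that were not used, and its header is a name short, so that the K562 SGC0946 replicate 4 values stand in the last column, which was read by its number.

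Genes reaching 2 CPM in 2 or more of a fit's libraries were tested with the edgeR 4.0.16 quasi-likelihood test in R 4.3.3 after TMM scaling, with Benjamini-Hochberg adjustment over all genes tested and calls at an adjusted p under 0.05. K562 and HuDEP-2 at 168 h were each fitted as 2 groups, and the differentiation experiment as 4 groups sharing an estimate of the spread. The fit was tested on simulated counts. Library shares were compared by exact two-sided permutation tests, adjusted over 18 tests. Same-numbered libraries of the differentiation experiment deviated together in every pair of groups (r 0.132 to 0.381), so the replicate number was also fitted as a block and its value is given where it changed a call. None of 36 library pairs within groups was identical, and the lowest chi-square per degree of freedom was 4.74. Alternatives were DESeq2 1.42.0, library totals, scaling without globin rows, no filter, the authors' limits, near-identical pairs summed and leaving out each library.

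The genes, the lists and the tests were chosen with earlier results of these data known. The genes named were the 10 globin genes, up to 4 genes of each list with the smallest adjusted p, 9 regulators and haem genes named whatever their p (BCL11A, ZBTB7A, KLF1, MYB, LIN28B, IGF2BP1, IGF2BP3, AHSP and ALAS2), and the 3 genes nearest in pattern to HBB, HBG2, HBA1 and HBE1. A few items that these rules name, and 1 promoter window, are not reported here. Promoter windows were read from GRCh38 at MANE Select starts of GENCODE release 44. Intervals for counting error were not computed, and p-values cover the spread between libraries alone.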

Additional observations from a re-analysis of the deposited data

Results flagged for a closer look

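In 4 of 52 groups of 4 libraries, the highest library stood far from the other 3, where chance gives about 1 in 20. HBB in K562 SGC0946 was 111 CPM in replicate 2 against 21.1 in the next library, and HBM in the same library was 2.51 CPM against 0.715. In HuDEP-2 at 168 h in DMSO, HBE1 was 0.956 CPM in replicate 2 against 0.392, and the gamma share was 0.848% in replicate 1 against 0.769%.

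The effect of SGC0946 differed between differentiated and expansion HuDEP-2 cells in the interaction test with the replicate number as a block (edgeR quasi-likelihood test, Benjamini-Hochberg). The log2 difference was 1.03 for HBD, 0.69 for HBG1, 0.71 for HBG2 and 0.25 for HBQ1, and -0.41 for HBA1 and -0.51 for HBA2. Without the block none of these 6 passed in the edgeR test, while HBD passed by DESeq2, with library totals and with no filter (adjusted p = 0.0025, 0.0158 and 0.000205).

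Several globin genes moved in opposite directions in different settings with no overlap between treated and control libraries. These differences between settings were not tested, and the share of all genes that did the same was not counted. HBA1 had a log2 fold change of 0.36 in K562, -0.66 in HuDEP-2 at 168 h and -0.41 in differentiated HuDEP-2. The last of these did not pass in the edgeR test without the block (adjusted p = 0.0557). HBA2 had 0.49 in K562 and -0.61 in HuDEP-2 at 168 h. HBE1 had -0.55 in K562, 1.14 in HuDEP-2 expansion medium, where it did not pass the test, and 2.32 in differentiated HuDEP-2. The expansion value rests on 3 to 8 reads in DMSO libraries and 6 to 9 reads in SGC0946 libraries. In that experiment HBE1 reached the filter through its differentiated SGC0946 libraries alone, so the value of 2.32 is not free of the filter.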

How the results depend on the processing

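Over 68 gene-level results, 479 of 514 values under other settings and 474 of 513 values with a library left out kept direction and call; 5 and 28 turned direction, none of them in a result that had passed. With the authors' limits (adjusted p under 0.1 and 0.5 on the log2 scale) 4 globin genes were called in K562 instead of 7. The calls lost were HBG1, HBA1 and HBA2, and over all 10276 genes tested there the calls went from 3588 to 2554. With the replicate number as a block 7 were called in expansion medium instead of 4, 8 in differentiated cells instead of 5, and 6 in the interaction instead of 0, where the authors' limits, DESeq2, library totals without TMM and no filter each called 1 and leaving out a library gave 0 to 1. With all libraries and no block, the other gained calls were HBB as lower at 168 h with no filter, HBA1 as lower in differentiated cells by DESeq2, library totals and no filter, HBA2 there with no filter, and HBQ1 as higher with differentiation after SGC0946 by DESeq2, no filter and the authors' limits. In K562 (r -0.0309 to 0.0629) and HuDEP-2 at 168 h (r -0.0423 to 0.000898) same-numbered libraries did not vary together, and the block changed no globin call there. Values that turned direction, on the log2 scale, were HBB in K562 with the block (0.0197), HBQ1 in K562 with library totals (-0.0036), HBA1 in expansion medium with pairs summed (0.0803) and with its own 2 groups alone (0.0022), HBB in differentiated cells with no filter (-0.0148), and the alpha to beta ratio in K562 from HBA1, HBA2, gamma and HBB alone (-0.0179). HBQ1 in K562 was also -0.0788 without replicate 2 of both groups, an alternative added after seeing the data.

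Leaving out a library gave -1.70 to 1.24 for HBB and -0.0257 to 0.105 for HBQ1 in K562. In expansion medium it gave -0.0910 to 0.0809 for HBA1, -0.0422 to 0.28 for HBA2, -0.0436 to 0.17 for HBB, -0.0359 to 0.45 for HBM, -0.15 to 0.27 for HBQ1 and -0.26 to 0.22 for the alpha to beta ratio. In differentiated cells it gave -0.0950 to 0.13 for HBB, -0.17 to 0.34 for HBM and -0.610 to 0.0092 percentage points for the globin share, and in the interaction -0.17 to 0.0733 for HBB, -0.0103 to 0.42 for HBZ and -0.40 to 0.12 for HBM. The cause of these shifts was not tested.

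Over all genes the block raised the calls from 380 to 1518 in expansion medium, 825 to 2455 in differentiated cells, 1548 to 3622 and 1301 to 3223 for differentiation after DMSO and SGC0946, and 47 to 888 in the interaction, where DESeq2 called 125, no filter 121 and the authors' limits 78. Library totals without TMM changed the higher share of calls from 62.0% to 76.0% at 168 h and from 55.7% to 38.9% for differentiation after SGC0946, and the authors' limits changed it to 81.7% at 168 h. Depth limits HBE1 in HuDEP-2 and HBM in K562, with at most 32 and 24 reads in a library.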

Other observations

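Genes that stand beside or within the 2 clusters but make no globin, HBBP1 and BGLT3 included, were read from a list of 18. In expansion and in differentiated HuDEP-2 none of the 11 tested passed with SGC0946 (edgeR quasi-likelihood test). Of all genes 3.11% were called higher and 0.751% lower in expansion medium, and 6.37% and 2.01% in differentiated cells. At shares this low, an absence of calls among 11 genes says little about them. At an unadjusted p under 0.05 stood 2 in expansion medium, both lower, and 3 in differentiated cells, beside 1361 and 2053 of the 9848 genes tested. DESeq2 called 1 of 11 lower in differentiated cells, beside 298 of 9848 genes. In the fit blocked on replicate number 1 fell in expansion medium, beside 6.16% of all genes, and 3 in differentiated cells, beside 12.1%. At 168 h 1 of 11 rose, TRIM5 (log2 fold change 1.04 ± 0.27 SE, adjusted p = 0.0127), beside 5.06% of all genes. Another 1 fell, PDIA2 (log2 fold change -0.91 ± 0.18 SE, adjusted p = 0.00128), beside 3.1%. In K562, where 17.7% of all genes rose, 4 of 12 rose, among them LUC7L (log2 fold change 1.29 ± 0.10 SE, adjusted p = 3.29e-09) and SNRNP25 (log2 fold change 0.79 ± 0.06 SE, adjusted p = 3.29e-09), both beside the alpha cluster. Another 2 of the 12 fell there, beside 17.2% of all genes.

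Across the 4 group means of the differentiation experiment, each centred on the log2 scale, the genes outside the globin family nearest to HBG2 included APOE and APOC1, at root mean square distances of 0.204 and 0.206. Nearest to HBB were SLC25A37, PALM and GXYLT1 at 0.0605, 0.0612 and 0.117. Nearest to HBA1 were ARRDC3, TMOD1 and RNF224 at 0.0256, 0.0426 and 0.0557, and nearest to HBE1 were PITX1-AS1, SEPTIN6 and SEMA3E at 0.0187, 0.104 and 0.12. APOE and APOC1 are neighbouring apolipoprotein genes, and SLC25A37 is the mitochondrial iron importer. With 4 means from 12 libraries these distances describe likeness of pattern across the groups alone. Those of HBE1 rest on 3 to 32 reads per library.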
